A study of Mus musculus with 8 samples.

Results

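Cntnap2, Nell1, Kcnip4, Garnl3, Etl4, Zfp385b and Ptprd are 7 of the 54232 genes counted in the nuclei of mouse forebrain studied here. They were chosen by name because an earlier analysis of the same data found them raised in clustered oligodendrocyte precursor nuclei after 1 of the 2 surgeries and not after both. Their group levels in precursor nuclei are therefore given below as a description with no test. Precursor nuclei were taken by a gate, which asks for at least 3 unique molecular identifiers (UMIs, each standing for 1 captured RNA molecule) in sum of Pdgfra, Cspg4 and Vcan. The gate held 1766 of 45560 nuclei, 176 to 281 in each of 8 libraries. The question was at what level these nuclei hold the 7 genes, and whether a small number of nuclei with many UMIs hold most of it.

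The tissue was a 2 mm cube of forebrain beside the lesion from male Swiss Webster mice aged 10 weeks, with no transgene or deleted gene named in the labels. The 4 groups were control surgery, BCAS (bilateral carotid artery stenosis, a lasting reduction of blood flow to the brain), TBI (traumatic brain injury), and BCAS+TBI, which had both. Each group had 2 libraries of single nuclei, labelled as biological replicates 1 and 2, made with droplet 3' chemistry. The time from surgery to dissection, and how many mice each library came from, are not given in the sources used here.

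Oligodendrocyte precursors are the dividing glial cells that give rise to the myelin-forming oligodendrocytes and persist in the adult brain. They carry the growth factor receptor PDGFRA and the proteoglycans made from Cspg4 (NG2) and Vcan, they receive synapses from neurons, and they express many adhesion and channel genes that neurons also use. Cspg4 is also found in pericytes and Pdgfra in fibroblasts, so a gate on these genes can take in other cells.

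Cntnap2 encodes CASPR2, a neurexin-like adhesion protein that gathers potassium channels along myelinated axons, and Ptprd encodes a receptor tyrosine phosphatase that organises synapses from the presynaptic side. Nell1 encodes a secreted glycoprotein with EGF-like repeats, known from bone formation. Kcnip4 encodes a calcium-binding subunit of the A-type potassium channels whose pores are made by Kcnd2 and Kcnd3. Garnl3 encodes a protein with a GTPase-activating domain of the Rap type, Etl4 a large cytoplasmic protein known from the developing notochord, and Zfp385b a zinc finger protein.

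All 7 are protein-coding genes, and 6 of them are among the longest genes tested. By GENCODE M21 on GRCm38, Cntnap2 (ENSMUSG00000039419) lies on chromosome 6 from 45059357 to 47304213, and Ptprd (ENSMUSG00000028399) on chromosome 4 from 75941238 to 78211961, spans of 2245 and 2271 kb. Nell1 (ENSMUSG00000055409) lies on chromosome 7 from 49974864 to 50866608, and Kcnip4 (ENSMUSG00000029088) on chromosome 5 from 48389502 to 49524907. Etl4 (ENSMUSG00000036617), Zfp385b (ENSMUSG00000027016) and Garnl3 (ENSMUSG00000038860) share chromosome 2, from 19909780 to 20810713, from 77410634 to 77819639 and from 32986224 to 33131654. The median span of the 9447 coding genes tested between high-UMI and other precursor nuclei was 36.9 kb. Garnl3, at 145 kb, was longer than 85.9% of them and the other 6 members were longer than at least 96.6%. These libraries hold nuclear RNA, which includes unspliced transcripts.

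The windows around the annotated starts of 3 members are shown as a description of the genes. Each runs from 250 bases before to 50 bases after a RefSeq transcript start on GRCm38.p6, 5′ to 3′ on the strand of the gene, and capitals mark CAGCTG or CAGATG on either strand. Both are forms of the E-box, which basic helix-loop-helix factors of the neural lineages can bind. The first is its own reverse complement and the motifs do not overlap here.
Cntnap2, chr6:45059811-45060110, plus strand: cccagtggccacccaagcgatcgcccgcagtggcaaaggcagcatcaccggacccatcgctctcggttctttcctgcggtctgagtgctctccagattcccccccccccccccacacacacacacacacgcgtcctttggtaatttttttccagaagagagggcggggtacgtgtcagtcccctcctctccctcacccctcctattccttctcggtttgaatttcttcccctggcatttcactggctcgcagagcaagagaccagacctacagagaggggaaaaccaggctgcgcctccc
Nell1, chr7:49975100-49975399, plus strand: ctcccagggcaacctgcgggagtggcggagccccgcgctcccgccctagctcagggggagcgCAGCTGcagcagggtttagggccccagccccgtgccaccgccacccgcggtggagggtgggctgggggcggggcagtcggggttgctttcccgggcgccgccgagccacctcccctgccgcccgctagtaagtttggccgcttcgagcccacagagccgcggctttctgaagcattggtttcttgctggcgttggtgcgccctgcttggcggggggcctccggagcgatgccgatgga
Kcnip4, chr5:49285610-49285909, minus strand: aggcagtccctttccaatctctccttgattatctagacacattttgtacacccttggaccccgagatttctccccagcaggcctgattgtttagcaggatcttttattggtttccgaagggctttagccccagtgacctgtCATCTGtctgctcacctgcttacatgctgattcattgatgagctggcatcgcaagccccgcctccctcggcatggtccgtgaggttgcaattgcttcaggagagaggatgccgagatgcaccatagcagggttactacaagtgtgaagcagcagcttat
The Cntnap2 window held neither motif, that of Nell1 held 1 CAGCTG, and that of Kcnip4 held 1 CAGATG, read on the opposite strand. Over the 14 windows of the 6 members with an entry, 1 held CAGCTG and 3 held CAGATG. Of all 32851 windows of 300 bases, 16.3% held CAGCTG and 17.2% held CAGATG. A link between these motifs and the members' levels was not tested. The windows differ in base composition, with 14 CpG pairs in that of Cntnap2, 28 in that of Nell1 and 7 in that of Kcnip4, against a median of 7 over all windows.

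The libraries held 28118725 to 56135192 UMIs over 6191 to 7882 barcodes, and fell into a set of 4 with 28118725 to 33363564 UMIs and a set of 4 with 42651388 to 56135192. Each set has 1 library of each group. Pairs of libraries shared 5 to 20 barcodes. After removing 4922 barcodes that failed the quality limits and the 2908 highest doublet scores (the 6% of each library most like a mix of simulated pairs), 45560 remained. Control 1 stands apart in where the automatic threshold of the doublet caller fell. That threshold marked 12.8% of control 1, and at most 0.0525% of any other library.

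The gate found nuclei with precursor genes, and it also found nuclei with many UMIs that held markers of several cell types. The 5 precursor genes kept outside the gate were the lineage factors Olig1, Olig2 and Sox10, the matrix gene Tnr and Lhfpl3. At least 1 UMI of them was found in 1674 of the 1766 gated nuclei. In 1313 nuclei they had at least 1 UMI and at least as many as each marker list of another cell type. Another count is that 277 gated nuclei had no UMI of Pdgfra or Cspg4 and passed on Vcan alone. High-UMI nuclei were those with over 3 times the median UMIs of the gated nuclei of their library, a median of 2646 to 5240. There were 25 to 82 per library and 469 in all, with a median of 14061 to 43414 UMIs. They made up 14.2% (95% Wilson interval 9.81 to 20.1) of the gated nuclei in TBI 2 and 35.9% (29.5 to 42.8) in BCAS 1, the lowest and highest shares. In 7 libraries they held 80.2% to 89.2% of all UMIs of the gated nuclei, and in TBI 2 they held 43.2%.

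Of the high-UMI nuclei, 88.0% to 100% also passed the gate of another class, against 22.7% to 44.4% of the remaining gated nuclei. A neuron gate (at least 3 UMIs of Slc17a7 and Slc17a6, or of Gad1, Gad2 and Slc32a1) was passed by 73.7% to 88.5% of the high-UMI nuclei and 4.22% to 17.5% of the rest. In 7 libraries a high-UMI nucleus passed on average 3.12 to 3.74 of the 5 other gates, and in TBI 2 it passed 1.24. Their median doublet score was 0.123 to 0.130 in 7 libraries and 0.0594 in TBI 2, against 0.00621 to 0.0132 in the rest. The summed level of the 5 precursor genes outside the gate was 1002 to 1256 CPM (UMIs of a gene per 1000000 UMIs of the summed nuclei) in high-UMI nuclei and 5157 to 6889 CPM in the rest. Slc17a7, the vesicular glutamate transporter of excitatory neurons, was at 95.6 to 163 CPM in high-UMI nuclei and 22.0 to 65.3 CPM in the rest. A fixed count of 3 UMIs is met at a lower level per UMI in a nucleus with more UMIs.

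In all gated nuclei together, the groups overlapped for most of the 7 genes in most comparisons. Both BCAS libraries lay above both controls for 2 members (Etl4 and Ptprd), against 8.71% of 16411 genes, and both TBI libraries lay below both controls for 1 (Ptprd), against 13.2%. Both BCAS+TBI libraries lay below both BCAS libraries for 3 (Cntnap2, Nell1 and Kcnip4), against 9.51%. They lay above both controls for 1 and above both TBI libraries for 1, Ptprd each time, against 6.73% and 10.5%. Cntnap2 was at 1802 and 2149 CPM in the control libraries, 2049 and 2337 after BCAS, 1645 and 2604 after TBI, and 2027 and 1733 after both surgeries. The control, TBI and BCAS+TBI libraries overlapped, and both BCAS+TBI libraries were below both BCAS libraries by a small margin. Kcnip4 was at 5646 and 4865 CPM in control, 5080 and 5819 after BCAS, 3815 and 5083 after TBI, and 5034 and 4864 after both surgeries. Its lowest library was TBI 1 and its highest BCAS 2. Nell1 was at 289 and 233 CPM in control, 273 and 367 after BCAS, 273 and 263 after TBI, and 263 and 249 after both surgeries.

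Ptprd showed the lowest levels in TBI. It was at 5070 and 5097 CPM in control, 5320 and 5803 after BCAS, 4281 and 3177 after TBI, and 5470 and 5174 after both surgeries. Both TBI libraries lay below all 6 others, and TBI 2 is the library with the fewest high-UMI nuclei. Marker lists of other cell types also differed in the TBI libraries. The mural list, genes of pericytes and smooth muscle, was at 461 CPM in TBI 1 and 248 in TBI 2, against 66.2 to 190 CPM in the 6 other libraries. The astrocyte list was at 634 and 372 CPM in TBI 1 and TBI 2, against 749 to 926 CPM. The endothelial list was at 727 CPM in TBI 1 and 140 in TBI 2, against 128 to 225 CPM. In TBI 2 the oligodendrocyte list was at 84.7 CPM, against 587 to 683 CPM in the 7 other libraries, and the microglia list was at 26.5 CPM. The part of these in the levels of Ptprd was not tested. Etl4 ranged from 443 CPM in TBI 2 to 723 CPM in BCAS 2, Zfp385b from 245 in BCAS+TBI 2 to 365 in BCAS 2, and Garnl3 from 113 in control 1 to 188 in BCAS+TBI 1. As group means the levels of Cntnap2 were 1975 ± 245 CPM in control, 2193 ± 203 after BCAS, 2124 ± 678 after TBI and 1880 ± 208 after both BCAS and TBI (SD, n = 2). Those of Ptprd were 5084 ± 19.4, 5561 ± 341, 3729 ± 781 and 5322 ± 210 CPM in the same order.

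In these gated nuclei edgeR's quasi-likelihood test called 0% of 16411 genes at an adjusted p under 0.05 in each of the 6 contrasts, with 50 to 376 genes at an unadjusted p under 0.05. The members' log2 differences from control, as a description, were 0.08 to 0.33 in BCAS, -0.44 to 0.17 in TBI and -0.11 to 0.18 in BCAS+TBI. The interaction, which is the effect of both surgeries less the sum of their separate effects, was -0.37 (SE 0.47) for Cntnap2, -0.39 (SE 0.33) for Nell1, 0.06 (SE 0.46) for Kcnip4, -0.15 (SE 0.43) for Garnl3, -0.01 (SE 0.33) for Etl4, -0.31 (SE 0.37) for Zfp385b and 0.38 (SE 0.40) for Ptprd. Its median over the members was -0.15, against 0.02 over all genes tested. Libraries of the same depth set deviated from their group means together, with correlations of 0.522 to 0.804 in gated precursor nuclei. With the library set as a block the interaction was -0.33 (SE 0.25) for Cntnap2, -0.38 (SE 0.25) for Nell1, 0.10 (SE 0.28) for Kcnip4, -0.19 (SE 0.18) for Garnl3, -0.03 (SE 0.22) for Etl4, -0.31 (SE 0.18) for Zfp385b and 0.38 (SE 0.23) for Ptprd. The genes at an unadjusted p under 0.05 for the interaction went from 138 to 804 with the block, and edgeR still called 0 of 16411 in each contrast. On simulated counts the interaction test without the block recovered 0% of genes changed 4-fold and 51.5% of those changed 8-fold. The lack of calls therefore does not show a lack of change.

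**Figure D1:**
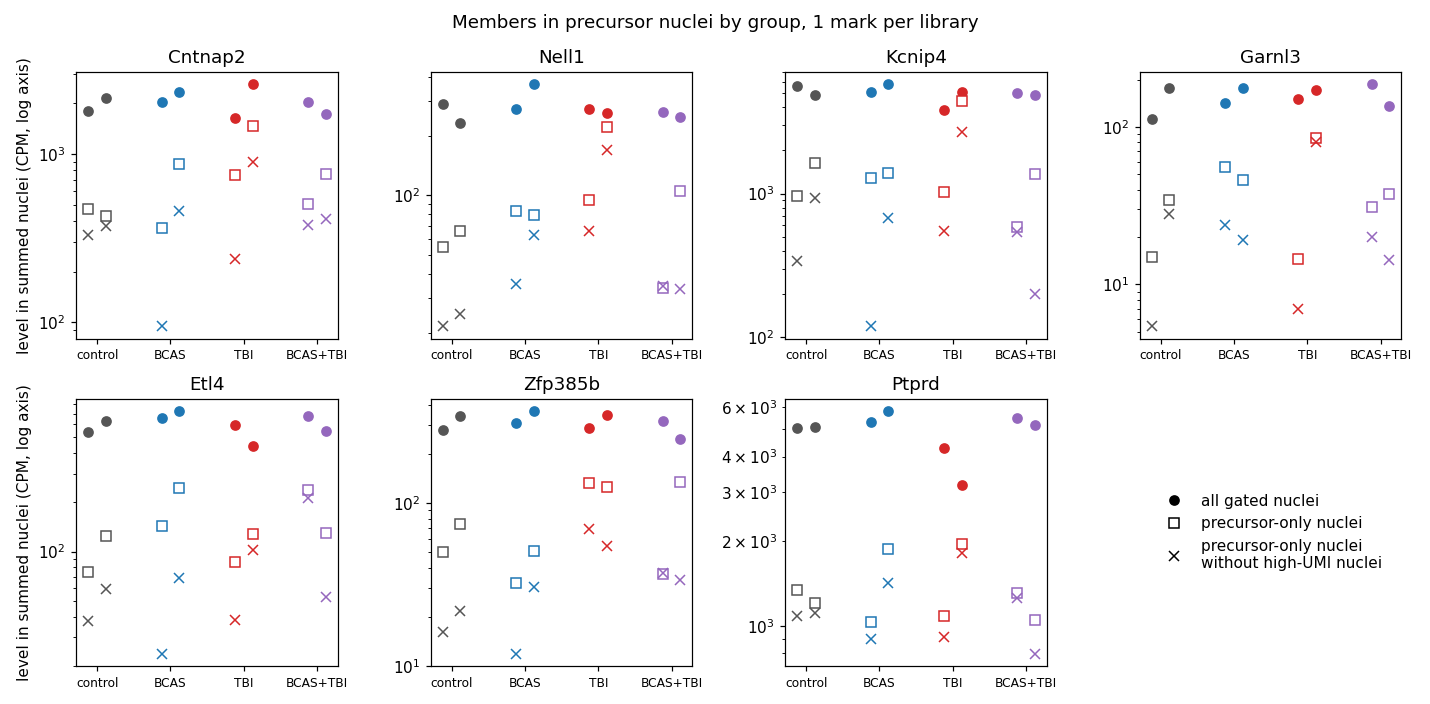
Levels of the 7 genes in precursor nuclei, in CPM on a log axis, for the 2 libraries of each group. Filled circles are all gated nuclei, open squares nuclei that pass the precursor gate only, and crosses the same without high-UMI nuclei: the circles lie close together across groups, while squares and crosses lie lower and spread more.

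A different picture came from nuclei that passed the precursor gate and none of the other 5 gates, 89 to 131 per library and 905 in all. This selection was made after the gated values had been seen. Cntnap2 was at 473 and 429 CPM in control, 365 and 868 after BCAS, 747 and 1461 after TBI, and 508 and 758 after both surgeries. Kcnip4 was at 965 and 1642 CPM in control, 1284 and 1401 after BCAS, 1024 and 4420 after TBI, and 587 and 1378 after both surgeries. Both genes were highest in TBI 2, and for Kcnip4 TBI 1 lay between the control libraries. Nell1 was at 54.7 and 66.2 CPM in control, 83.1 and 79.3 after BCAS, 95.2 and 222 after TBI, and 33.7 and 105 after both surgeries, so that both BCAS and both TBI libraries lay above both controls. These levels rest on 79 to 527 UMIs of Cntnap2, 194 to 1595 of Kcnip4 and 11 to 80 of Nell1 per library.

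Across the 7 members in these precursor-only nuclei, BCAS did not overlap control for 3 (Nell1, Garnl3 and Etl4, all higher) and TBI for 3 (Cntnap2, Nell1 and Zfp385b, all higher). Of all 7706 genes tested, 13.9% and 13% did so in that direction. Per library, the levels rest on 3 to 31 UMIs of Garnl3, 15 to 111 of Etl4 and 7 to 46 of Zfp385b. BCAS+TBI lay below BCAS without overlap for 1, Garnl3, against 14.6% of genes. It lay above control for 2, Cntnap2 and Etl4, against 10.6%, and above TBI for 1, Etl4, against 11%. The edgeR interaction was -1.30 (SE 0.63) for Cntnap2, -1.66 (SE 0.77) for Nell1, -1.55 (SE 0.85) for Kcnip4, -1.51 (SE 1.01) for Garnl3, -0.59 (SE 0.53) for Ptprd, -0.17 (SE 0.60) for Etl4 and -0.09 (SE 0.77) for Zfp385b. All 7 values are below 0 and they are given as a description. In the same fit 0% of 7706 genes were called, with 159 at an unadjusted p under 0.05. With the library set as a block the 7 values ran from -1.65 for Nell1 to -0.14 for Zfp385b, with -1.15 (SE 0.53) for Cntnap2, and edgeR called 0 genes, with 318 at an unadjusted p under 0.05.

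Even in the precursor-only nuclei, 1 to 6 high-UMI nuclei per library held much of the members' UMIs. These 33 nuclei held 2.22% to 22.0% of the UMIs of all genes. They held 25.9% to 79.7% of the UMIs of Cntnap2, 10.0% to 92.8% of those of Kcnip4 and 6.64% to 40.4% of those of Ptprd. For Cntnap2 the share was highest in BCAS 1 (79.7%) and TBI 1 (73.4%), and lowest in control 2 (25.9%) and BCAS+TBI 1 (27.1%). The share held by these nuclei was above that of all genes in 7 of 8 libraries for Nell1 and Zfp385b. For each other member it was above in 8 of 8. BCAS+TBI 1 had 1 such nucleus, which held 0% of the UMIs of Nell1 and of Zfp385b, and BCAS 2 and BCAS+TBI 2 had 6 each. Without them Cntnap2 was at 329 and 373 CPM in control, 94.8 and 459 after BCAS, 239 and 892 after TBI, and 379 and 410 after both surgeries. Both BCAS+TBI libraries then lay just above both controls, while BCAS and TBI each overlapped control. BCAS 1 was the lowest library for Cntnap2 and TBI 2 the highest. Mean Nell1 (SD) was 23.2 (2.32) CPM in control, 49.4 (19.6) after BCAS, 118 (73.2) after TBI and 33.9 (0.764) after both. Its BCAS and TBI libraries stayed above both controls and both BCAS+TBI libraries, and its BCAS+TBI libraries also lay above both controls. Zfp385b stayed above control in TBI, at 61.8 (10.6) against 18.98 (3.94) CPM. Its BCAS+TBI libraries, at 35.3 (2.79) CPM, also lay above both controls. It overlapped control in BCAS, as did Kcnip4, Garnl3, Etl4 and Ptprd in BCAS and in TBI. Counted with these nuclei, Nell1 had 11 to 80 UMIs per library. In control 1 the high-UMI nuclei held 7 of 11 Nell1 UMIs, and in control 2 they held 17 of 25. For Zfp385b they held 7 of 10 and 21 of 28. The levels without them therefore rest on few UMIs. These levels were not tested, and the share of all genes that separated in this way was not counted for this set. With the high-UMI nuclei, 13.9%, 13% and 10.6% of 7706 genes lay above control without overlap in BCAS, TBI and BCAS+TBI.

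Across all gated nuclei the 469 high-UMI nuclei held most of the members' UMIs. Outside TBI 2, high-UMI nuclei held 84.0% to 94.6% of the UMIs of Cntnap2, 89.7% to 97.5% of those of Kcnip4, 92.1% to 97.9% of those of Nell1, and 91.2% to 96.7% of those of Ptprd. In TBI 2 the shares were 57.9%, 71.3%, 64.1% and 61.9% in the same order. For each member the share was above that of all genes in 8 of 8 libraries. From 10 to 19 nuclei per library were enough to hold 50% of the UMIs of Cntnap2, 9 to 17 for Kcnip4 and 5 to 16 for Etl4. A single nucleus held up to 2072 UMIs of Kcnip4 and up to 814 of Cntnap2. At the other end, 12.5% to 54.3% of the gated nuclei of a library had no UMI of Kcnip4, 27.0% to 59.6% had none of Cntnap2 and 60.5% to 77.8% had none of Nell1.

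**Figure D2:**
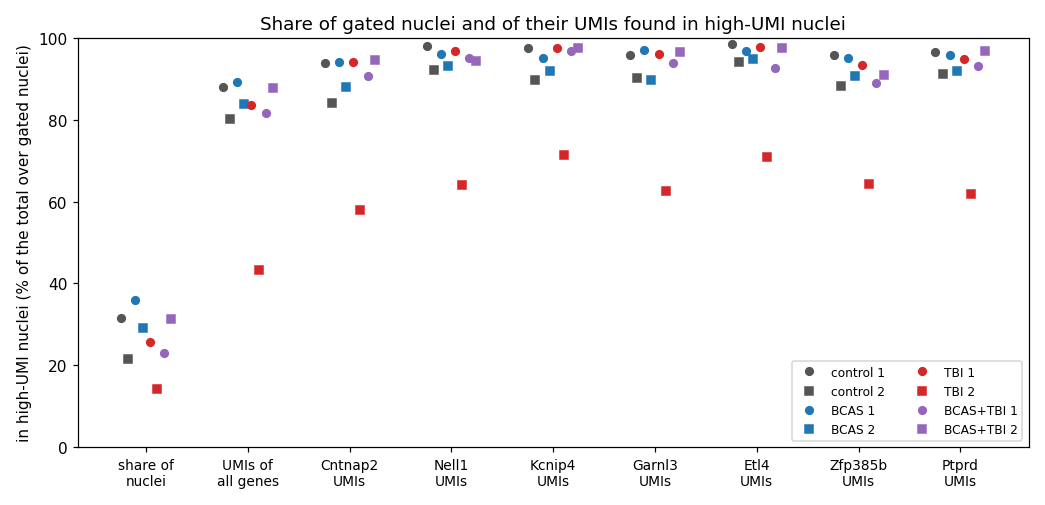
Percent of gated nuclei, of all their UMIs and of each member's UMIs that fell in high-UMI nuclei, 1 mark per library. High-UMI nuclei were 14.2% to 35.9% of the nuclei, and every member's share lies above that of all genes in each library, with TBI 2 lowest throughout.

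Sorted by their UMIs, gated nuclei held little of the members below 4000 UMIs and far more at 4000 or more, where most members were still below the median of excitatory neurons. Kcnip4 had a lowest, median and highest library of 156, 242 and 610 CPM under 4000 UMIs, and of 4332, 5441 and 6941 CPM at 4000 or more. Cntnap2 had 86.8, 191 and 320 CPM under 4000, and 1855, 2188 and 3543 CPM at or above it. Ptprd had 872, 1088 and 1508 CPM under 4000, and 3863, 5493 and 6055 CPM at or above it. For each of the 7 members the upper level was higher in 8 of 8 libraries, by a median of 23.1-fold for Kcnip4, 11.7-fold for Cntnap2 and 5.14-fold for Ptprd. The nuclei under 4000 UMIs numbered 97 to 147 per library, and held from 19 UMIs of Cntnap2 (control 1) to 106 (BCAS 2).

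The other members followed the same course at lower levels. Etl4 had a median of 37.8 CPM under 4000 UMIs and 673 CPM at or above, Nell1 28.8 and 298 CPM, Zfp385b 22.5 and 339 CPM, and Garnl3 23.3 and 178 CPM. Cntnap2 and Zfp385b took most of their rise between 2000 to under 4000 UMIs and 4000 to under 8000 UMIs: Cntnap2 went from a median of 183 to 2041 CPM and Zfp385b from 18.1 to 344 CPM. Kcnip4 and Ptprd went on rising, from medians of 2235 and 2748 CPM at 4000 to under 8000 UMIs to 5672 and 5651 CPM at 8000 or more. The precursor genes outside the gate moved the other way, from a median of 8541 CPM at 2000 to under 4000 UMIs to 3218 and then 1099 CPM. Another gate was passed by a median of 25.2%, 67.1% and 95.2% of the nuclei in these 3 ranges. The part of RNA from the classes of the other gates in these levels was not tested.

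**Figure D3:**
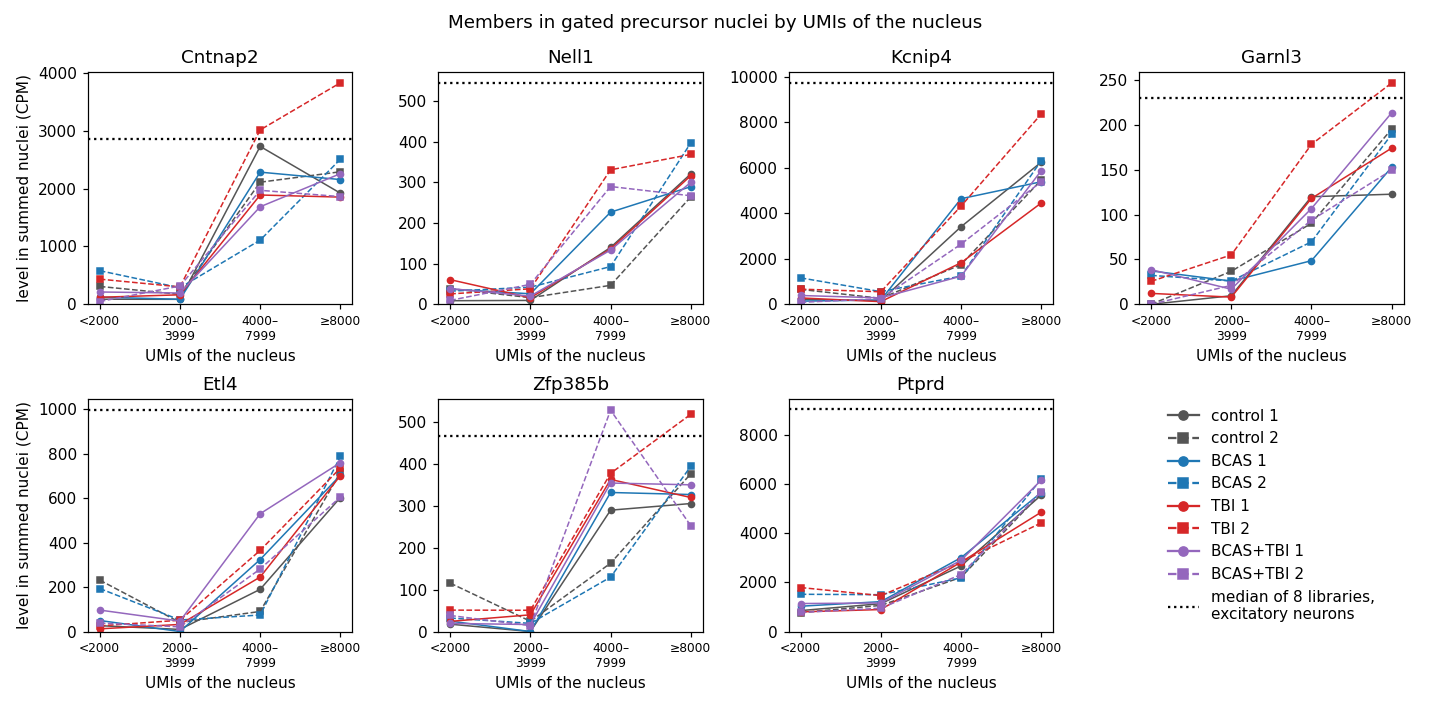
Level of each member (CPM) in gated nuclei summed within 4 ranges of UMIs per nucleus, 1 line per library, with the median excitatory neuron level dotted. In every library the 2 ranges under 4000 UMIs lie far below the range of 8000 or more, and lines of different groups cross.

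Tested with library as a block, all 7 members rose in high-UMI nuclei against the other gated nuclei of the same library. Cntnap2 was at a lowest, median and highest library of 1854, 2205 and 3487 CPM in high-UMI nuclei and 585, 1079 and 1932 CPM in the others, Kcnip4 at 4455, 5713 and 8393 against 571, 1760 and 2887 CPM, and Ptprd at 4548, 5706 and 6359 against 1357, 2014 and 2901 CPM. The groups of libraries overlap for Cntnap2 and not for Kcnip4 or Ptprd. In edgeR's quasi-likelihood test the log2 difference was 0.98 (SE 0.11, adjusted p 3.24e-07) for Cntnap2, 1.96 (SE 0.18, adjusted p 7.28e-09) for Kcnip4 and 1.57 (SE 0.11, adjusted p 6.23e-11) for Ptprd. For Etl4 it was 2.08, for Nell1 1.70, for Garnl3 1.43 and for Zfp385b 1.06, with adjusted edgeR p-values of 4.19e-11 to 1.86e-08. Of all 10365 genes tested, 21.1% were called higher and 17.4% lower, so calls in both directions were common.

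Genes of neurons in general moved with the members, and their close relatives did not all do so. Of 15 pan-neuron genes, 12 rose in high-UMI nuclei and none fell, with a median log2 difference of 0.88 against 0.02 over all genes. By UMIs the largest of them were the noncoding RNA Meg3 (1.34, adjusted edgeR p 9.50e-09), the splicing factor Rbfox1 (0.49, adjusted edgeR p 1.81e-05), Csmd1 (-0.09, adjusted edgeR p 0.441) and the synaptic scaffold Dlg2 (0.60, adjusted edgeR p 1.93e-06). Of 34 partners and relatives of the members, 14 rose and 15 fell. The Kv4 pore Kcnd2 fell by 0.38 on the log2 scale (adjusted edgeR p 0.000770) and the synaptic adhesion gene Il1rapl1, whose product binds PTPRD, by 0.21 (adjusted edgeR p 0.0393). Among the paralogs Cntnap5a (1.64), Nell2 (1.35) and Kcnip2 (1.38) rose, and Kcnip1 (-1.19) and Kcnip3 (-1.66) fell.

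The marker lists of other cell types in the same contrast moved in both directions. Slc17a7 rose by a log2 difference of 1.39 (SE 0.14, adjusted edgeR p 2.47e-08). All 5 oligodendrocyte genes rose (median 0.83), as did all 4 microglia genes tested (median 0.94). All 5 precursor genes outside the gate fell, with Lhfpl3 at -2.68 and Tnr at -2.18 (adjusted edgeR p-values 7.87e-16 and 8.21e-15). Of 4 inhibitory neuron genes tested 3 fell, and the largest by UMIs was Nxph1, at 334 to 1226 CPM in high-UMI nuclei and 1868 to 2917 CPM in the others. Gad1 was at 33.1 to 125 CPM in high-UMI nuclei and 69.0 to 209 CPM in the others. Of 5 astrocyte genes 1 rose and 1 fell (median 0.16), with list sums of 343 to 968 CPM in high-UMI nuclei and 393 to 885 CPM in the others. Of the genes tested, 0 of 4 endothelial (median 0.28) and 0 of 3 mural (median -0.04) were called by edgeR. The endothelial sums were 110 to 857 against 45.7 to 344 CPM, and the mural sums 59.6 to 505 against 53.8 to 357 CPM. Of 2 fibroblast genes tested, Bnc2 rose (1.00, adjusted edgeR p 0.0413), with list sums of 25.5 to 153 against 20.6 to 245 CPM. The 5 smallest p-values among genes that rose belonged to AC129186.1, Mical2, Ptk2b, Slc24a2 and Pex5l, with log2 differences of 2.83, 1.77, 2.47, 1.56 and 1.55. Among those that fell they belonged to Cspg4, Megf11, Arhgap31, Sema3d and Pdgfra, of which Cspg4 and Pdgfra are in the gate and were fixed by it.

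Against other classes, all gated nuclei held the members below excitatory neurons and above astrocytes. Nuclei of the other classes passed no other gate, while gated precursor nuclei could. In excitatory neurons Kcnip4 had a lowest, median and highest library of 7444, 9740 and 11598 CPM, and Cntnap2 2184, 2862 and 3357 CPM. Inhibitory neurons held 4234, 5348 and 6238 CPM of Cntnap2 and 2921, 3968 and 5015 CPM of Kcnip4. Astrocytes held 246, 499 and 1051 CPM of Cntnap2, oligodendrocytes 719, 984 and 1284 CPM, and microglia 447, 1250 and 2164 CPM. For Cntnap2 the order of the medians was thus inhibitory neurons, excitatory neurons, gated precursor nuclei (2038 CPM), microglia, oligodendrocytes and astrocytes. The libraries of neighbouring classes overlap except between inhibitory and excitatory neurons.

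Ptprd had another order, since oligodendrocytes hold it at a high level. Its median was 9045 CPM in excitatory neurons, 6164 in oligodendrocytes, 5136 in gated precursor nuclei, 3472 in microglia, 2318 in inhibitory neurons and 1487 in astrocytes. Nell1 had medians of 546, 348, 268, 207, 171 and 71.5 CPM in excitatory neurons, inhibitory neurons, gated precursor nuclei, microglia, oligodendrocytes and astrocytes. Etl4 and Zfp385b were highest in inhibitory neurons, at medians of 1525 and 570 CPM, against 614 and 315 CPM in gated precursor nuclei. Garnl3 ranged from a median of 78.9 CPM in astrocytes to 246 in inhibitory neurons.

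With library as a block, 14 of 21 pairs of a member and a glial class were called higher in gated precursor nuclei by edgeR. The 2 sides were selected differently. Of the 1766 gated nuclei 861 also passed another gate, 528 of all gated nuclei a neuron gate, while the glial nuclei passed no other gate. Precursor-only nuclei, held to the same rule, are given below. Against astrocytes all 7 were called, at log2 differences of 0.98 for Garnl3 to 2.15 for Etl4, where 27.2% of 12373 genes were called higher. Against oligodendrocytes 6 were called higher, from 0.57 for Garnl3 to 1.13 for Etl4, and Ptprd was lower at -0.38 (SE 0.10, adjusted edgeR p 0.00350), where 30.5% of 10731 genes were called higher and 23.7% lower. Against microglia 1 was called, Cntnap2 at 1.04 (SE 0.28, adjusted edgeR p 0.00819), where 15.2% of 9293 genes were called higher. As a description, the members were at -1.03 to -0.60 against excitatory neurons. Against inhibitory neurons they ranged from -1.38 for Cntnap2 to 1.06 for Ptprd.

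Fewer of these differences were called higher when the nuclei with many UMIs were left out. Without high-UMI nuclei edgeR called 3 of the 21 pairs higher, Cntnap2, Nell1 and Zfp385b against astrocytes, where the share of all genes called higher was 21.6% against astrocytes, 23.7% against oligodendrocytes and 17.8% against microglia. It called 0 lower against astrocytes, 5 against oligodendrocytes (Nell1, Kcnip4, Garnl3, Etl4 and Ptprd) and 3 against microglia (Kcnip4, Garnl3 and Etl4), where 24.7%, 19.7% and 16.2% of all genes were called lower. In precursor-only nuclei it called 1, Cntnap2 against astrocytes, where the shares called higher were 20.5%, 22.1% and 21%. It called 1 lower against astrocytes (Garnl3), 7 against oligodendrocytes and 6 against microglia, where 19.9%, 24.1% and 20.6% of all genes were called lower. In gated nuclei under 4000 UMIs it called 0 of the 20 pairs tested, where the shares called higher were 23%, 26.1% and 23.3%. Under 4000 UMIs all 7 members were lower than in astrocytes, from -0.45 for Ptprd to -2.51 for Kcnip4 on the log2 scale, and all 7 were lower than in oligodendrocytes, from -2.13 for Garnl3 to -3.38 for Kcnip4. All 14 of these differences were called by edgeR, in fits where 22.6% of 8361 and 24.4% of 6087 genes were called lower. Against microglia 6 of 6 members tested were called lower, where 21.7% of 4563 genes were. The astrocytes and oligodendrocytes in that comparison were of any number of UMIs. In nuclei of 2000 to under 4000 UMIs of both classes, precursor nuclei had the higher median over libraries for 3 members and astrocytes for 4. Ptprd was at 1147 CPM in precursor nuclei and 643 in astrocytes, Cntnap2 at 183 and 160, and Nell1 at 23.0 and 14.7. Kcnip4 was at 254 and 363 CPM, Garnl3 at 23.5 and 67.5, Etl4 at 36.4 and 51.4, and Zfp385b at 18.1 and 30.5. These differences at matched UMIs were not tested.

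**Figure D4:**
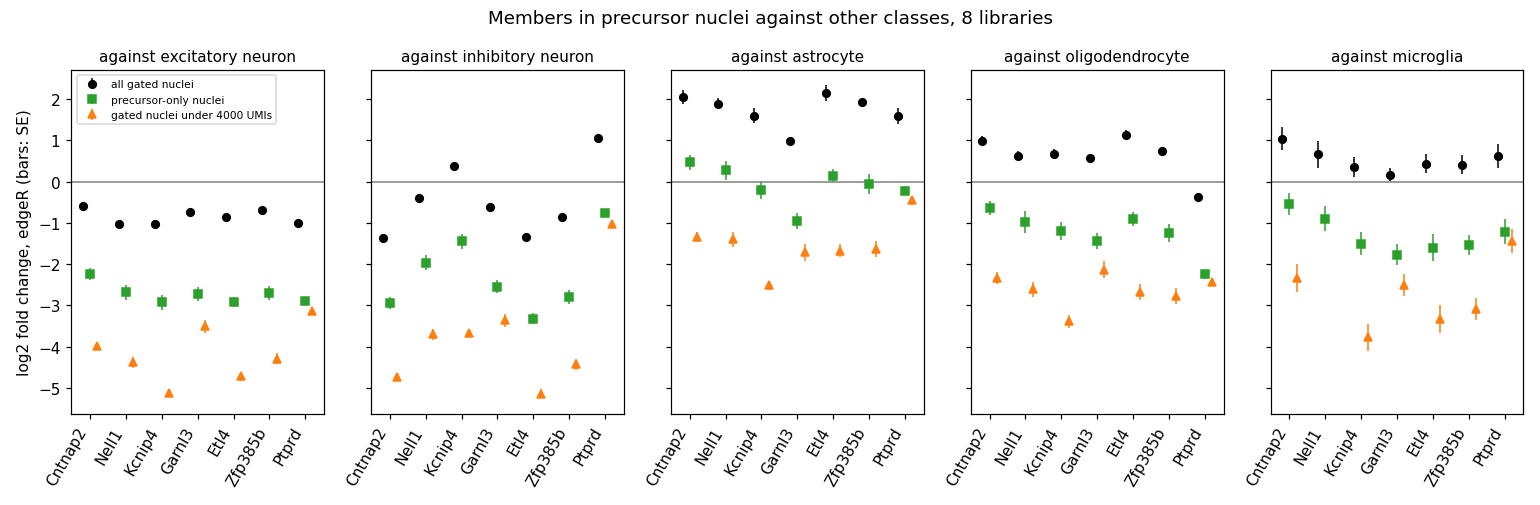
Log2 difference (edgeR, with library as a block, bars SE) of each member in precursor nuclei against 5 classes, for all gated nuclei, precursor-only nuclei and gated nuclei under 4000 UMIs. Against astrocytes the 7 values for all gated nuclei lie between 0.98 and 2.15 and those under 4000 UMIs between -2.51 and -0.45.

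Counting nuclei rather than UMIs gave a smaller excess of gated nuclei over astrocytes for Cntnap2, Kcnip4 and Nell1. Thinned to 1000 UMIs per nucleus, with 23 of the 1766 shallower nuclei left out, 27.6% to 47.7% of the gated nuclei had a UMI of Cntnap2, with a median over libraries of 39.9%, and before thinning the median was 57.4%. In precursor-only nuclei the median was 19.3%, in astrocytes 14.4%, in oligodendrocytes 22.5%, and in excitatory neurons 80.0%. For Kcnip4 the medians were 44.8% in gated, 21.0% in precursor-only, 30.1% in astrocyte, 31.7% in oligodendrocyte and 92.3% in excitatory neuron nuclei. For Nell1 they were 9.61%, 5.17%, 2.93%, 5.14% and 30.8%. The thinning left out 177 of 3502 astrocytes and 396 of 2368 oligodendrocytes. For Kcnip4 the precursor-only median was below those of astrocytes and oligodendrocytes, and for Cntnap2 it lay between them. The mean UMIs of Cntnap2 per nucleus before thinning had a median over libraries of 28.1 in gated and 1.66 in precursor-only nuclei. It was 26.1 in excitatory neurons and 1.38 in astrocytes. The gated mean does not describe a typical nucleus, since 27.0% to 59.6% of the gated nuclei of a library had no UMI of Cntnap2.

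The dependence on UMIs per nucleus was shared with other glia. From nuclei of 2000 to under 4000 UMIs to those of 8000 or more, the median level of Kcnip4 over libraries rose from 254 to 5672 CPM in gated precursor nuclei, from 363 to 5926 CPM in astrocytes and from 920 to 7765 CPM in oligodendrocytes. That of Cntnap2 rose from 183 to 2208 CPM, from 160 to 1830 CPM and from 312 to 2495 CPM. In excitatory neurons the same step took Kcnip4 from 8225 to 10618 CPM and Cntnap2 from 2169 to 3056 CPM. The ratio of the medians was 4.93 to 22.4 for the members in precursor nuclei, 1.80 to 18.8 in astrocytes, 1.30 to 13.8 in oligodendrocytes, 1.04 to 13.3 in microglia, and 0.989 to 1.83 in neurons of either class. The astrocytes of 8000 or more UMIs numbered 98 in all and as few as 5 in a library, and microglia 37 and as few as 1. The slopes were not compared by a test.

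**Figure D5:**
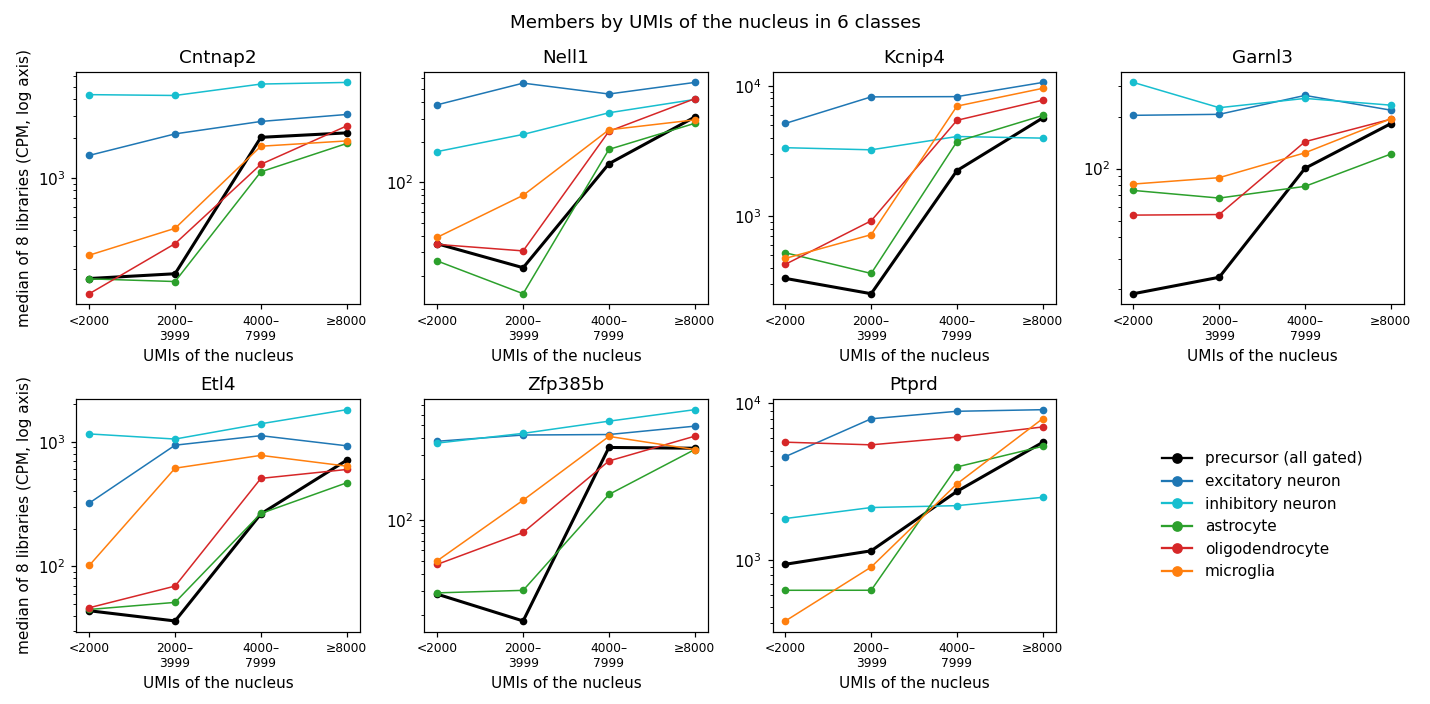
Median over libraries of each member's level (CPM, log axis) in 6 classes of nuclei, in 4 ranges of UMIs per nucleus. Excitatory and inhibitory neurons stay within a narrow band from 2000 UMIs on, and most members rise in precursor, astrocyte and oligodendrocyte nuclei above 4000 UMIs; Ptprd stays level in oligodendrocytes.

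In the 5 other classes the members did not pass the test in any group contrast. Over 35 pairs of a member and a class, edgeR called 0 in each of 6 contrasts, where it called 0% of 61896 gene and class pairs and 392 to 472 pairs had an unadjusted p under 0.05. In excitatory neurons the members' log2 differences from control were 0.02 to 0.16 in BCAS, -0.16 to 0.23 in TBI and -0.18 to 0.04 in BCAS+TBI. In inhibitory neurons they were 0.00 to 0.12, -0.11 to 0.07 and -0.11 to 0.11. The smallest unadjusted p belonged to Etl4 in oligodendrocytes, BCAS against control (log2 difference 1.02, SE 0.33, unadjusted p 0.0110, adjusted edgeR p 1.00). Etl4 was at 252 and 129 CPM there in control and 404 and 366 CPM in BCAS, and the groups did not overlap. With the library set as a block this difference was 1.03 (SE 0.23, unadjusted p 0.000258, adjusted edgeR p 0.606), and its interaction was -1.17 (SE 0.33, unadjusted p 0.00213, adjusted edgeR p 0.897). That fit called 1 gene and class pair for BCAS against control (0.00162%), 5 for TBI against control (0.00808%), 0 in the other 4 contrasts, and no member. In oligodendrocytes both BCAS libraries lay above both controls for 6 of the 7 members, against 13.5% of 10532 genes, and in microglia both BCAS+TBI libraries lay below both TBI libraries for 5, against 13.6% of 5166 genes. These 2 counts were picked out after the values were seen, as the 2 highest of 25 counts of 7 members, and the members share their libraries. How many nuclei with many UMIs each library held was not taken into account. DESeq2 called 0 pairs in the other classes in every contrast, and in gated precursor nuclei it called 1 gene, no member, for the interaction and 0 in the other 5 contrasts.

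Over the 8 libraries the non-members whose level in gated nuclei ran most like the mean of the members were Trim37 (Pearson r 0.956), Camta1 (0.956), Cdh10 (0.935), Oxr1 (0.933) and Add3 (0.931), out of 1834 genes at 100 CPM or more. These are descriptions over 8 points that share libraries and depth. Camta1 is also on the pan-neuron list. The members themselves ran at r = 0.451 (Ptprd) to 0.787 (Zfp385b) with their own mean.

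Long genes as a group were called more often between high-UMI and other precursor nuclei, in both directions. Of 328 coding genes of 400 kb or more, 45.7% were called higher and 34.1% lower, against 16.3% and 15.9% of the 6065 genes of 10 to 100 kb. The members other than Garnl3 are in the first class. The median log2 difference was 0.15 in the first and 0.00 in the second.

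At the edge of the gate, 326 nuclei had exactly 3 UMIs of Pdgfra, Cspg4 and Vcan and 570 had 2. Kcnip4 had a lowest, median and highest library of 3732, 4612 and 6034 CPM just inside and 3739, 5070 and 6805 CPM just outside. Cntnap2 had 1734, 2139 and 3128 CPM inside and 1386, 2475 and 3392 CPM outside.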

How the data were processed

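Nuclear RNA of 8 libraries was read as UMI counts. Per the file headers, the deposited values are raw counts per gene and barcode from Cell Ranger 7.0.0. The submitters' processing notes name GRCm38, mm10 and Seurat, with no role. The deposited barcode and feature files hold other entries, which are names and not measurements.

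The 7 members, the gene lists and the rules were chosen with earlier results of these data known. Barcodes under 500 UMIs, under 300 genes or over 5% mitochondrial UMIs were dropped. The 6% of each library with the highest Scrublet scores (scanpy 1.11.5) were then removed, because the automatic threshold marked too few barcodes in 7 libraries. Gates ask for at least 3 UMIs in sum. Precursor nuclei pass the gate on Pdgfra, Cspg4 and Vcan, whatever else they pass, and nuclei of the 5 other classes pass their own gate and no other. Nuclei were not clustered.

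Counts were summed per library and class, and cells were never used as replicates. Tests were two-sided, with edgeR 4.0.16 in R 4.3.3 (quasi-likelihood, TMM, a minimum count of 10) and Benjamini-Hochberg adjustment over all genes tested, called at an adjusted p under 0.05. Group contrasts used all 8 libraries in 1 fit per class. For the 5 other classes the adjustment ran over all gene and class pairs. Contrasts between classes of nuclei had library as a block. An alternative fit of the group contrasts had the library set (deeper or shallower, 1 library of each group in each) as a block. DESeq2 1.42.0 was an alternative. The statistics were tested on simulated counts with 200 genes changed by a known fold. The interaction test in precursor nuclei recovered 0% of them at 2-fold, 0% at 4-fold and 51.5% at 8-fold. The test of high-UMI against other precursor nuclei recovered 95.8% at 2-fold. The labels call the libraries of a group biological replicates. Wilson intervals cover counting error only.

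Named genes were all members, up to 4 of each list with the most UMIs in precursor nuclei, the 5 smallest p-values in each direction between high-UMI and other nuclei, and the 5 genes most like the members by Pearson r of log2(CPM + 10). The paralogs Cntnap5a, Nell2, Kcnip1, Kcnip2 and Kcnip3, and Gad1, were named after their values were seen. Whether counting used strand is not given in the sources used here, so reads of a gene and of an overlapping antisense gene may be mixed. Promoter windows came from RefSeq on GRCm38.p6, with an entry for 6 of the 7 members. The result of 1 marker list is not reported here.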

Additional observations from a re-analysis of the deposited data

Results flagged for a closer look

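Etl4 in oligodendrocyte nuclei moved in opposite directions in the 2 comparisons of TBI. It was at 252 and 129 CPM in the control libraries and 285 and 281 CPM in TBI, a log2 difference of 0.57. It was at 404 and 366 CPM in BCAS and at 304 and 199 CPM in BCAS+TBI, a log2 difference of -0.61. Both TBI libraries lay above both controls, as for 11.7% of 10532 genes. Both BCAS+TBI libraries lay below both BCAS libraries, as for 13.1%. This pair was picked out by a search over all members and classes for such opposite changes. The difference between these effects, the interaction, was -1.19 on the log2 scale (SE 0.47, unadjusted p 0.0287, adjusted p 1.00 by edgeR's quasi-likelihood test over 61896 gene and class pairs). It therefore did not pass the test, and it rests on 86 to 422 UMIs of Etl4 per library. Etl4 in oligodendrocytes was at a median of 46.5 CPM under 2000 UMIs and 599 CPM at 8000 or more. The nuclei of 8000 or more UMIs numbered 115 in all and as few as 4 in a library. Their part in these group levels was not tested.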

How the results depend on the processing

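The rise of all 7 members in high-UMI nuclei kept its direction and call under every alternative run, which were 20 for each member. No member was called in any group contrast of the 5 other classes under any alternative run. The count of 14 glial pairs called higher was 3 without high-UMI nuclei, 1 in precursor-only nuclei, and 0 both without nuclei holding a UMI of a neuron gate gene and under 4000 UMIs; it was 14 with any 1 library left out. The median interaction of the members in gated nuclei, -0.15, was 0.19 with a gate of at least 5 UMIs, -0.65 without high-UMI nuclei, 0.34 without nuclei holding a UMI of a neuron gate gene, 0.13 in nuclei supported by precursor genes outside the gate, -1.30 in precursor-only nuclei, -0.75 under 4000 UMIs (4 members tested) and -0.51 after thinning to 1000 UMIs. Leaving out each library in turn gave -0.41 to 0.081, with values above 0 without BCAS 2 (0.024), TBI 2 (0.018) or BCAS+TBI 2, so its sign rests on single libraries. The precursor-only and under 4000 UMIs settings were chosen after seeing the data. Replicate numbers do not pair the libraries: correlations of same-numbered libraries ran from -0.857 to 0.821. The fit with the replicate number as a block gave a median of -0.13 and no call. Libraries of the same depth set did deviate together, with correlations of 0.260 to 0.857 over the classes; with the library set as a block the median was -0.19 and no member was called. Precursor nuclei by clustering were not run. With doublets kept, Garnl3 against microglia was -0.013. The cause of these changes was not tested. Without high-UMI nuclei the log2 differences that changed sign against astrocytes were Kcnip4 -0.098 and Garnl3 -0.22. Against oligodendrocytes they were Nell1 -0.80, Kcnip4 -0.99, Garnl3 -0.62, Etl4 -0.66 and Zfp385b -0.090. Against microglia they were Nell1 -0.75, Kcnip4 -1.35, Garnl3 -1.08, Etl4 -1.41, Zfp385b -0.44 and Ptprd -0.71. Without nuclei with a UMI of a neuron gate gene the log2 differences that changed sign against astrocytes were Cntnap2 -0.37, Nell1 -0.84, Kcnip4 -1.26, Garnl3 -1.33, Etl4 -0.64, Zfp385b -1.04 and Ptprd -0.11. Against oligodendrocytes they were Cntnap2 -1.43, Nell1 -2.07, Kcnip4 -2.21, Garnl3 -1.75, Etl4 -1.66 and Zfp385b -2.22. Against microglia they were Cntnap2 -1.40, Nell1 -1.98, Kcnip4 -2.54, Garnl3 -2.12, Etl4 -2.39, Zfp385b -2.50 and Ptprd -1.13. In precursor-only nuclei the log2 differences that changed sign against astrocytes were Kcnip4 -0.20, Garnl3 -0.96, Zfp385b -0.049 and Ptprd -0.22. Against oligodendrocytes they were Cntnap2 -0.64, Nell1 -0.99, Kcnip4 -1.20, Garnl3 -1.44, Etl4 -0.91 and Zfp385b -1.25. Against microglia they were Cntnap2 -0.55, Nell1 -0.89, Kcnip4 -1.51, Garnl3 -1.77, Etl4 -1.60, Zfp385b -1.52 and Ptprd -1.21. In gated nuclei under 4000 UMIs the log2 differences that changed sign against astrocytes were Cntnap2 -1.34, Nell1 -1.40, Kcnip4 -2.51, Garnl3 -1.71, Etl4 -1.67, Zfp385b -1.63 and Ptprd -0.45. Against oligodendrocytes they were Cntnap2 -2.33, Nell1 -2.61, Kcnip4 -3.38, Garnl3 -2.13, Etl4 -2.67 and Zfp385b -2.77. Against microglia they were Cntnap2 -2.34, Kcnip4 -3.77, Garnl3 -2.51, Etl4 -3.33, Zfp385b -3.09 and Ptprd -1.44.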

Other observations

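Gated nuclei under 2000 UMIs held genes of vessel-associated cells in some libraries. The mural list (Pdgfrb, Rgs5, Abcc9, Vtn and Kcnj8, genes of pericytes and smooth muscle) had a lowest, median and highest library of 0, 316 and 1080 CPM there, and 9.74, 45.4 and 316 CPM at 2000 to under 4000 UMIs. The fibroblast list (Dcn, Col1a2, Slc6a13, Bnc2 and Lum) was at 37.2, 273 and 1118 CPM under 2000 UMIs and at 10.1, 49.9 and 295 CPM from 2000 to under 4000. The summed precursor genes outside the gate were at 5475, 7814 and 8152 CPM under 2000 UMIs. These nuclei numbered 18 to 75 per library.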
